A study of Mus musculus with 24 samples.

Results

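The Ifi200 family and Aim2 were described across 24 bulk mRNA-seq libraries of sorted mouse bone marrow cells. The members were chosen by gene symbol, as the AIM2-like genes of which Ifi205 had been seen to rise in Y-TTPΔARE MPP3 cells, so the genotype difference in MPP3 cells served the choice and is given below as a description without a test. Of 10 symbols, 9 were found among the 55376 genes counted: Ifi203, Ifi204, Ifi205, Ifi207, Ifi209, Ifi213, the pseudogene Ifi203-ps, Mndal and Aim2. The symbol Mnda was not matched and is not analysed here.

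Male mice homozygous for TTPΔARE lack the AU-rich element in the 3′ UTR of Zfp36, the gene of tristetraprolin (TTP), an RNA-binding protein that promotes decay of AU-rich mRNAs, and they were compared with wild-type (WT) littermates without any treatment. The allele is germline, so every cell of the animal carries it. Hematopoietic stem cells (HSCs, sorted as LSK CD34- Flk2- CD150+) came from young mice of 4 to 5 months (4 Y-WT and 4 Y-TTPΔARE libraries) and from middle-aged mice of 1 year (5 M-WT and 3 M-TTPΔARE). MPP3 cells, multipotent progenitors with granulocyte and monocyte bias, came from young mice only (4 Y-WT and 4 Y-TTPΔARE). The titles number the middle-aged HSC, young HSC and MPP3 libraries in 3 separate series and do not say whether these were prepared together, so age or cell type cannot be told apart from library set. Nor do they say whether libraries of a group came from separate animals. P-values then measure only the spread between these libraries.

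Libraries held 24261371 to 39934554 counts. Zfp36 was higher in every TTPΔARE library than in any WT library of the same age and cell type. Its lowest and highest CPM (counts relative to library size, on one scale over all 24 libraries) were 32.5 and 69.2 in Y-WT HSCs against 85.4 and 105 in Y-TTPΔARE HSCs, 41.6 and 60.4 against 95.03 and 106 in middle-aged HSCs, and 20.5 and 38.4 against 81.7 and 124 in MPP3 cells. The difference passed the test described below in middle-aged HSCs (log2 fold change 0.97, SE 0.11, edgeR adjusted p = 0.0020) and not in young HSCs (0.96, SE 0.21, edgeR adjusted p = 0.238). The sorted identities were checked on marker genes. Of 13 HSC genes 10 were lower in Y-WT MPP3 cells than in Y-WT HSCs, and of 12 MPP3 and granulocyte-monocyte genes 10 were higher, Cd34, Cd48 and Mpo among them. By scaling factor 1 library stood apart: that of Y-TTPΔARE MPP3 replicate 4 was 0.731, against 0.846 to 1.15 in the other 23. Replicates of WT groups were uneven too. The chi-square per gene between 2 libraries, given their depth, was 146 to 237 for pairs with Y-WT MPP3 replicate 1. It was 48.5 to 67.6 for the other pairs of that group. Pairs with Y-WT HSC replicate 3 were at 108 to 154, and the other Y-WT HSC pairs at 36.5 to 64.8.

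The proteins of this family carry a HIN domain, which binds DNA, and most also carry a pyrin domain, through which they meet other proteins. Aim2 is the cytosolic sensor of double-stranded DNA that recruits the adaptor ASC (Pycard) and caspase-1 into an inflammasome. The Ifi200 genes are a mouse expansion of the same family, widely known as interferon-inducible genes of myeloid cells, and Ifi204 in particular has been tied to monocyte differentiation and to STING-dependent DNA sensing.

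All 9 genes lie on chromosome 1, in 680932 bases that hold 22 annotated genes (chr1:173350879-174031810, GRCm38). Aim2 sits at one end (chr1:173350879-173466040, plus strand) and Ifi205 at the other (chr1:174011998-174031810, minus strand). Mndal (chr1:173849126-173942491) overlaps Ifi203 (chr1:173920407-173942672) on the same strand over 37 exonic bases. The genes also share sequence. Of the 50-base windows of its main transcript, 49.6% of those of Ifi205 occur exactly in another gene, nearly all in Ifi211, a family gene that is no member here. The share was 35.1% for Ifi209 (mostly Ifi214), 30.2% for Ifi204 (Ifi211), 27.9% for Ifi213 (Ifi208), 27.2% for Mndal, 26.3% for Ifi203-ps (mostly Ifi203), 10.7% for Ifi203, 7.2% for Ifi207 and 0.8% for Aim2. How reads that match several genes were counted is not given in the sources used here. The counts of all members except Aim2 may therefore partly belong to a paralog, and of these members Ifi207 shared the fewest windows.

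**Figure D1:**
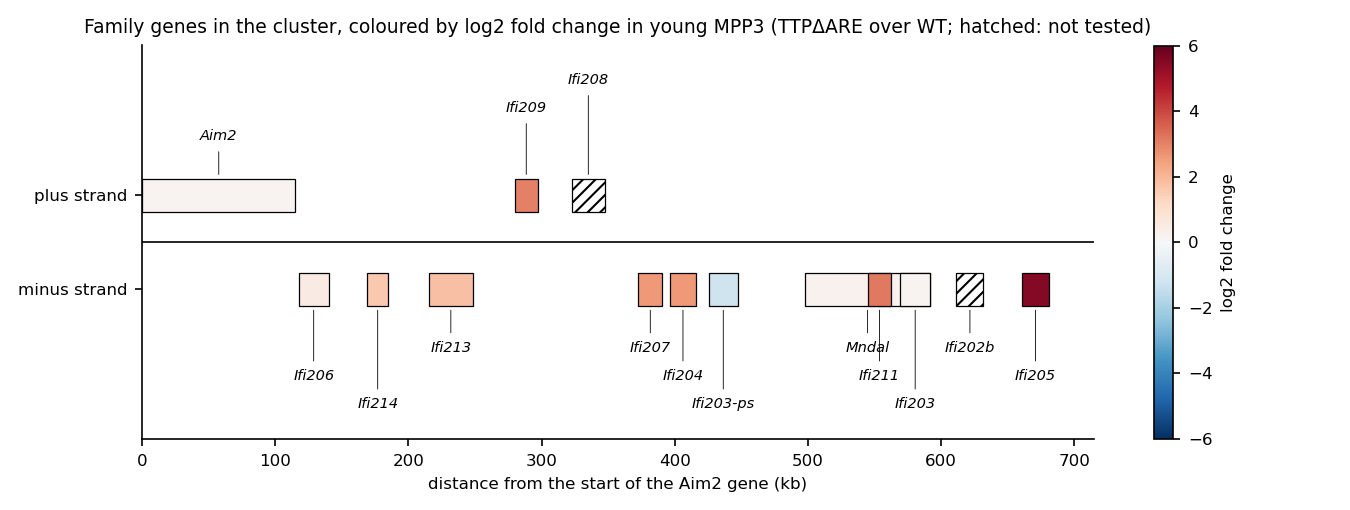
The 14 family genes of the cluster, drawn to scale by distance from the start of Aim2 in kb and by strand, and coloured by log2 fold change between Y-TTPΔARE and Y-WT MPP3 cells. Ifi205, at the far end from Aim2, has the deepest colour (log2 fold change 5.51), and Ifi203-ps is the gene on the blue side (-1.26). Hatched genes were not tested in MPP3 cells.

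Promoters from RefSeq (GRCm38.p6, 250 bases before to 50 after a transcription start) were found for 7 of the 9 members. They are shown because interferon response is the regulation for which the family is best known. The core of the interferon-stimulated response element, searched as GAAA and GAAA with any 2 bases between them on either strand, occurred in 5 of the 7 (Ifi205, Ifi207, Ifi213, Ifi203 and Mndal) and in 4.0% of all 27025 genes with a promoter. The capitals mark it in the windows of Ifi205 (chr1:174031706-174032005, minus strand), Ifi207 (chr1:173741760-173742059, minus strand), Ifi213 (chr1:173599223-173599522, minus strand) and Ifi203 (chr1:173942443-173942742, minus strand, the second of 2 starts). Ifi209 (chr1:173630609-173630908, plus strand) is shown as a window without it.
Ifi205: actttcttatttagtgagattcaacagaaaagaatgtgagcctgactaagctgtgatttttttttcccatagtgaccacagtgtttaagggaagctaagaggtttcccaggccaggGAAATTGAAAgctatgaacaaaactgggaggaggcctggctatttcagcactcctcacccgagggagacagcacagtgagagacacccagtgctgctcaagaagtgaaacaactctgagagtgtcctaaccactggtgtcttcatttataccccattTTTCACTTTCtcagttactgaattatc
Ifi207: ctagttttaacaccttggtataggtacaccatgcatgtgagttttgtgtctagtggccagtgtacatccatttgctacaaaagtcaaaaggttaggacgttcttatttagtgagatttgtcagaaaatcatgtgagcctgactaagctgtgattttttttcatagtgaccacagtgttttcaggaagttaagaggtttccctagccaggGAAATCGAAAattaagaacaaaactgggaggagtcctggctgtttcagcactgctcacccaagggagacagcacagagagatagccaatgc
Ifi213: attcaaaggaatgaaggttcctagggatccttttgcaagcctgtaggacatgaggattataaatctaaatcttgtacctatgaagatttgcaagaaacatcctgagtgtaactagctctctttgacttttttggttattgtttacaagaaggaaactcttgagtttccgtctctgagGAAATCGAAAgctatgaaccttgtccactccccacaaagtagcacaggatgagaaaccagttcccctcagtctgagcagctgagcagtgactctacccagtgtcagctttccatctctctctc
Ifi203: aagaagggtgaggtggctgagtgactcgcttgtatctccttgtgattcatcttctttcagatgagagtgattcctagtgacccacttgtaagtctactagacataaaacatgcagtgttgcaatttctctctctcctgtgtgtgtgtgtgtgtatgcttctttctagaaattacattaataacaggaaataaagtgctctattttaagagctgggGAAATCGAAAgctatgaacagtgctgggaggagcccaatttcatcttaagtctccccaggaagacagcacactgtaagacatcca
Ifi209: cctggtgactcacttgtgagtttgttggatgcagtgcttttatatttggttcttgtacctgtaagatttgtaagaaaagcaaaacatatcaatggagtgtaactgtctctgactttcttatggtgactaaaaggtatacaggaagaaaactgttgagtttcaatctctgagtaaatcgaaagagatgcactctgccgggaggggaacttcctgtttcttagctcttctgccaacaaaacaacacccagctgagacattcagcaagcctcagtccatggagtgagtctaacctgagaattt
Counted from 1 at the start, with -1 the base before it, the match began at position -134 and again at 24 in Ifi205, at -41 in Ifi207, at -73 in Ifi213 and at -35 in Ifi203. The plus-oriented match read GAAATCGAAA in Ifi207, Ifi213, Ifi203 and Mndal and GAAATTGAAA in Ifi205. Among family genes outside the members, Ifi206, Ifi208 and Ifi214 held the first spelling and Ifi211 the second. The gamma-activated sequence TTCNNNGAA was in 0 of the 7 promoters (9.6% of all genes), and the composite motif of GGAA and GAAA with any 2 bases between them, which can overlap the first motif, was in 0 of 7 (3.2%). These matches are descriptions of letters in the windows. The longer AU-rich motif TATTTAT, of the kind TTP binds in 3′ UTRs, occurred in 1 of the 8 coding members, Ifi203, and in 26.0% of 21659 coding genes. The shorter ATTTA occurred in Aim2, Ifi213, Ifi209, Mndal and Ifi203 and was absent from the annotated 3′ UTRs of Ifi204, Ifi205 and Ifi207, and 61.7% of coding genes held it.

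By level the family falls into an abundant set and a scarce set. Per kb of exon, Mndal was at 32.0 ± 1.26 CPM (SD, n = 4) in Y-WT HSCs, Ifi203 at 27.8 ± 1.77 and Aim2 at 12.1 ± 1.59. The next level, that of Ifi203-ps, was 2.30 ± 0.396 CPM per kb, and Ifi205 was the lowest at 0.0514 ± 0.0595. Ifi203, Mndal and Aim2 together made up 94.3 to 98.1% of the summed CPM of the 9 genes in every library of the 5 groups other than Y-TTPΔARE MPP3, where they made up 66.6 to 78.0%. The summed CPM had a median of 425 in Y-WT MPP3 cells (402 to 498) and of 663 in Y-TTPΔARE MPP3 cells (578 to 797).

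The scarce members Ifi205, Ifi209, Ifi207, Ifi204 and Ifi213 were higher in all 4 Y-TTPΔARE MPP3 libraries than in any Y-WT MPP3 library. Counting genes with a fold above 2, groups that do not overlap and an average logCPM (log2 of CPM) above 1.5, these 5 of 9 members were higher and 0 were lower, beside 1.66% and 0.110% of all 19023 genes. The median log2 fold change was 1.82 over the 9 members and 0.04 over all genes. Because the members were chosen on this contrast, nothing is read from that comparison, and standard errors (SE) are given without a test.

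Ifi205 showed the widest difference of the 9 genes. Its CPM in Y-WT MPP3 replicates 1 to 4 was 1.90, 1.16, 1.31 and 3.21, and in Y-TTPΔARE MPP3 cells it was 118, 58.0, 77.6 and 112. The groups were far apart, with a log2 fold change of 5.51 (SE 0.38). Its mean level per kb was 0.454 ± 0.224 CPM in Y-WT MPP3 cells and 21.9 ± 6.82 in their Y-TTPΔARE counterparts, where it stood above Aim2 (13.4 ± 2.62) and below Mndal (50.5 ± 7.28). In the 16 HSC libraries Ifi205 had between 0 and 52 counts, at most 1.505 CPM. Its fitted genotype difference in young HSCs was 1.29 with a 95% interval of -1.99 to 4.57 (edgeR adjusted p = 0.768), and in middle-aged HSCs it did not pass the filter on low counts.

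Ifi209 was at 5.25, 4.33, 12.3 and 2.02 CPM in Y-WT MPP3 cells and at 65.3, 33.9, 51.9 and 43.0 in Y-TTPΔARE MPP3 cells (log2 fold change 3.03, SE 0.46). Ifi207, the member with little shared sequence besides Aim2, was at 1.83, 1.56, 2.88 and 3.97 against 21.0, 14.6, 13.8 and 14.9 CPM (2.61, SE 0.33). Both sets of libraries were separate. Ifi204 was at 1.48, 1.65, 2.21 and 1.71 CPM in Y-WT MPP3 cells and at 17.8, 9.05, 8.85 and 7.45 in Y-TTPΔARE MPP3 cells (2.60, SE 0.33), with replicate 1 well above the other 3. Ifi213 was at 1.55, 3.41, 3.22 and 2.77 against 12.5, 11.0, 8.49 and 7.23 CPM (1.82, SE 0.32). Every one of the 5 stayed above 2-fold when any 1 library was left out. Without Y-TTPΔARE MPP3 replicate 4, which had the lowest scaling factor, their log2 fold changes were 5.46 for Ifi205, 3.13 for Ifi209, 2.68 for Ifi207, 2.77 for Ifi204 and 1.97 for Ifi213.

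The other 4 members differed little or went the other way. The abundant Ifi203, an Ifi200 gene, had a log2 fold change of 0.18 (SE 0.12) and overlapping groups, 205 to 260 CPM in Y-WT MPP3 cells and 231 to 356 in Y-TTPΔARE MPP3 cells. Mndal overlapped as well on the common scale, at 136 to 168 and 162 to 219 CPM (0.25, SE 0.11). On the scaling within this comparison its groups did not overlap. Aim2, the sensor itself, was at 34.5 to 46.1 and 35.3 to 57.4 CPM (0.14, SE 0.20). Ifi203-ps was at 3.49, 4.68, 4.92 and 2.67 CPM against 2.95, 0.864, 1.41 and 1.41 (-1.26, SE 0.40), and 1 Y-TTPΔARE library lay inside the Y-WT range.

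**Figure D2:**
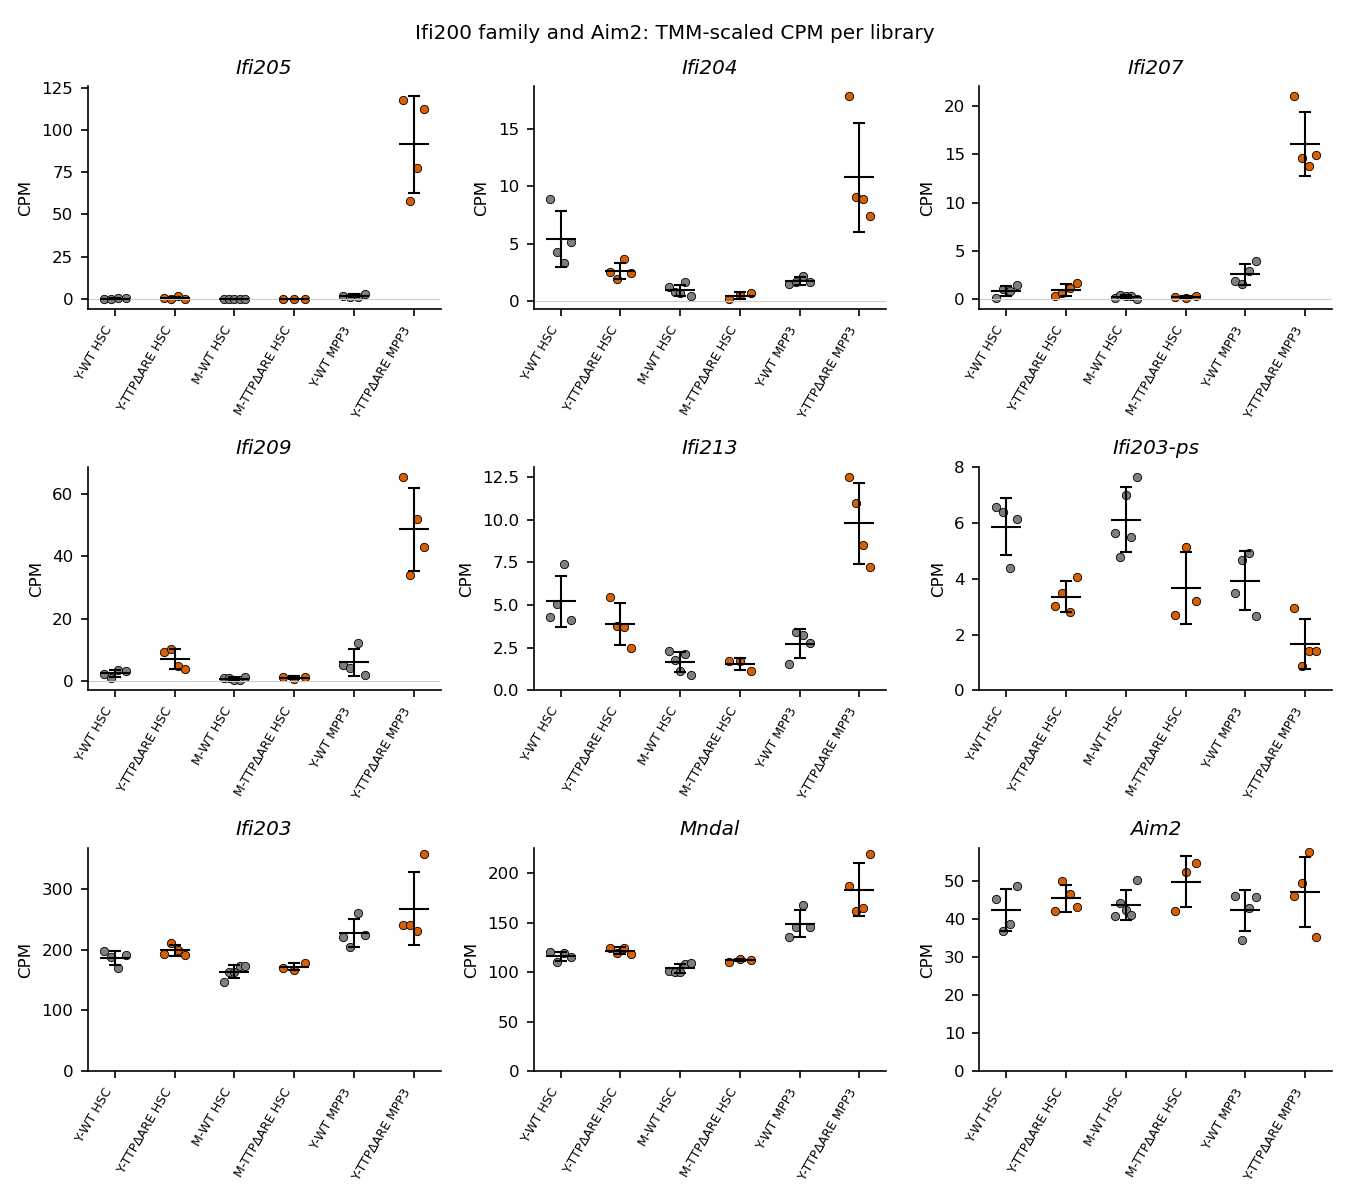
CPM of each member in each library, on a linear axis per gene, with Y-WT and M-WT in grey and TTPΔARE in orange. Horizontal marks are group means and bars 1 SD. Ifi205, Ifi204, Ifi207, Ifi209 and Ifi213 are highest in Y-TTPΔARE MPP3 cells, where Ifi205 spans 58.0 to 118 CPM, and Aim2 stays between 34.5 and 57.4 CPM in all 24 libraries.

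Genes that mark dendritic cells and monocytes were also higher in the Y-TTPΔARE MPP3 libraries. Of 12 genes of conventional dendritic cells of type 1 (cDC1), 10 passed the same limits. The chemokine receptor gene Xcr1 was at 0.347 to 2.77 CPM in Y-WT and at 41.1 to 96.3 in Y-TTPΔARE MPP3 cells, Clec9a, a receptor for dying cells, at 0.693 to 1.66 and 18.0 to 46.9, and the transcription factor Batf3 had a log2 fold change of 5.28 (SE 0.59). The summed CPM of the cDC1 list was 430 to 491 in Y-WT and 754 to 1549 in Y-TTPΔARE MPP3 cells, and none of its genes was at 0 in every library of a group. Ifi205 and Xcr1 were both lowest in replicate 2 of the Y-TTPΔARE libraries and both high in replicates 1 and 4. Ifi209 was also lowest in replicate 2. Ifi204 and Ifi213 were lowest in replicate 4, at 7.45 and 7.23 CPM, where Xcr1 was highest, and Ifi207 was lowest in replicate 3. Of 16 monocyte and macrophage genes 8 passed, Ccr2, Adgre1 and Fcgr1 among them, with sums of 554 to 896 and 1178 to 2035 CPM. Of 11 tested genes of antigen presentation and type 2 dendritic cells 6 passed, Cd209a, H2-Eb1 and H2-Aa among them, with sums of 1036 to 1663 and 6073 to 12486 CPM. The part of these cells or genes in the higher values of the 5 members was not tested, and in bulk samples a different number of cells of a type and a different amount of RNA per cell cannot be told apart. For the remaining lists, 3 MPP3 and granulocyte-monocyte, 3 basophil and mast cell, 3 erythroid and 1 lymphoid gene were higher, 1 HSC gene (Tek) was lower, and 0 genes of neutrophils, B cells, T and NK cells or plasmacytoid dendritic cells passed.

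**Figure D3:**
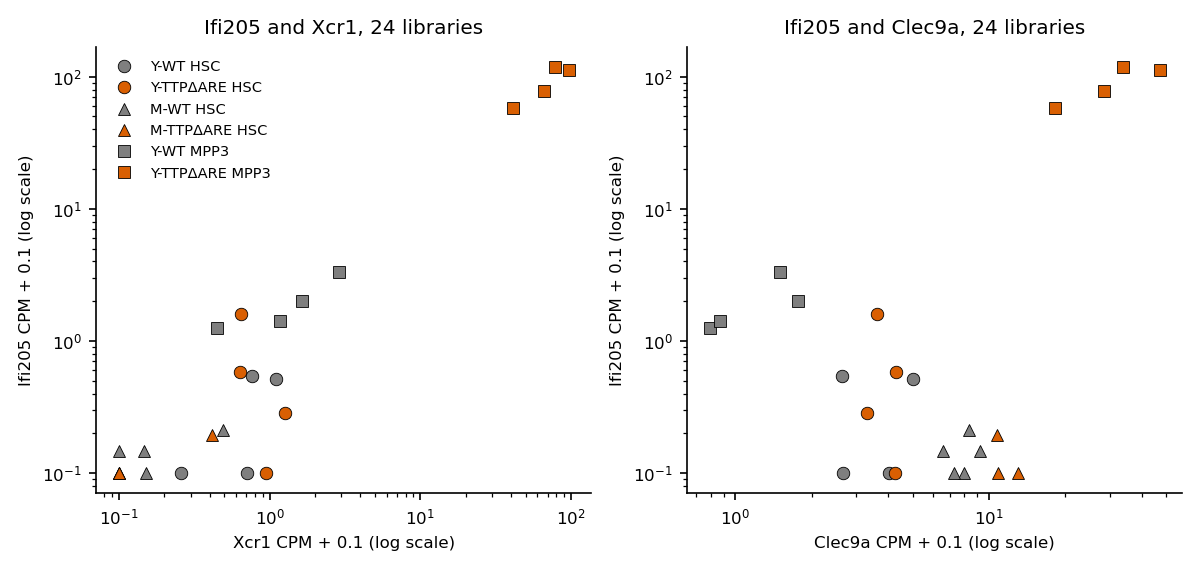
Ifi205 against the cDC1 genes Xcr1 (left) and Clec9a (right) in 24 libraries, as CPM plus 0.1 on log axes. Grey marks WT and orange TTPΔARE, circles young HSCs, triangles middle-aged HSCs and squares MPP3 cells. The 4 orange squares stand alone at the upper right, at 58.0 to 118 CPM of Ifi205 and 41.1 to 96.3 CPM of Xcr1, and the middle-aged HSCs hold Clec9a at 6.48 to 12.9 CPM with Ifi205 at 0 to 0.112.

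Over all 24 libraries the pattern of Ifi205 was most like that of Tlr11 (Pearson r of log2 CPM 0.97), Mycl (0.96), Irf8 (0.95), Fgd2 (0.94) and Themis2 (0.94), among 13590 genes. Irf8, a transcription factor of monocytes and dendritic cells, was at 24.0 to 63.0 CPM in Y-WT and 233 to 449 in Y-TTPΔARE MPP3 cells. Among members, Mndal (0.91) and Ifi207 (0.90) were nearest to Ifi205, Aim2 was at 0.02 and Ifi203-ps at -0.78. Without the 4 Y-TTPΔARE MPP3 libraries r was 0.86 for Tlr11, 0.77 for Irf8, 0.79 for Mndal and 0.72 for Ifi207. The genes had been ranked with these 4 libraries included, so the lower values are no separate support. In the remaining 20 libraries Ifi205 was at 0 to 3.21 CPM, and group means of Tlr11 were 0.0915 to 1.61 CPM, both near the floor. For Ifi203-ps the nearest were Gp1ba (0.84), Pcdhgb5 (0.83), Lrp11 (0.82), Fhdc1 (0.81) and Tfec (0.81). Without those 4 libraries their r was 0.60, 0.55, 0.57, 0.44 and 0.63, and that of Ifi203-ps with Ifi205 was -0.47. These values are descriptions over libraries that share cell type and genotype.

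The neighbourhood and the wider pathway were counted with the same limits in MPP3 cells. Inside the cluster 6 of 13 tested genes were higher, the 5 members and Ifi211, which shares much of its sequence with Ifi205 (log2 fold change 3.17, SE 0.45). Within 1 Mb on either side 1 of 15 tested genes was higher, Slamf8, a receptor of myeloid cells. Of 24 tested genes of inflammasomes and DNA sensing 2 were higher, Mefv, which encodes pyrin (3.11, SE 1.02), and Zbp1, a sensor of nucleic acids in the Z form (1.11, SE 0.23). Partners of Aim2 and of DNA sensing were named after their values were seen: log2 fold changes were 0.40 (SE 0.18) for Pycard, 0.32 (SE 0.11) for Casp1, -0.06 (SE 0.14) for Cgas and 0.24 (SE 0.10) for Tmem173, which encodes STING. Also named after the values were seen, Il1b (6.34, SE 1.16) and Nlrp3 (2.52, SE 0.75) were higher without overlap of the groups. Their average logCPM, 1.33 and -0.13, was below the limit, so they were not counted. The median of the tested list was 0.26. Of 39 tested type I interferon response genes 5 were higher, among them Mx1 (1.93, SE 0.28), Ifi27l2a (1.34, SE 0.27) and Ifit3 (1.13, SE 0.25), and the median of the list was 0.09 beside 0.04 for all genes. Of 28 interferon gamma response genes 5 were higher, among them Cxcl9 (4.81, SE 0.35), Irf8 (3.25, SE 0.34) and Ciita (2.96, SE 0.18), and the median was 0.52. None of the 8 tested interferon receptor and kinase genes passed, and the 9 interferon genes summed to at most 0.614 CPM in any MPP3 library.

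In HSCs no member passed the test between genotypes at either age. Calls needed a fold above 1.2, an average logCPM above 1.5 and an adjusted p under 0.05 (edgeR's quasi-likelihood F test, adjusted over all genes by the method of Benjamini and Hochberg). In young HSCs 0 of 9 members were called in either direction, beside 0.0123% of 24381 genes higher and 0.0123% lower, and 3 members had an unadjusted p under 0.05. In middle-aged HSCs 0 of 8 were called, beside 0.700% of 21136 genes higher and 0.710% lower, and 1 had an unadjusted p under 0.05. DESeq2 called 1 member higher and 1 lower in young HSCs, beside 0.883% of the 18686 genes it gave an adjusted p higher and 0.744% lower, and 1 lower in middle-aged HSCs, beside 1.91% of 19472 genes higher and 2.32% lower. With no filter on low counts edgeR also called 1 member lower in middle-aged HSCs, beside 0.744% of 45582 genes higher and 1.10% lower. For young HSCs the paper reports far more changed genes at the same limits, Zfp36 among them. Few genes of any kind were called here in young HSCs, and Zfp36 was not. A missing call in young HSCs, for a member or a pathway gene, therefore does not show that the gene was unchanged.

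The pseudogene Ifi203-ps had lower values in TTPΔARE HSCs of both ages. Its CPM was 6.58, 6.40, 4.38 and 6.14 in Y-WT and 3.04, 3.51, 2.81 and 4.06 in Y-TTPΔARE HSCs, so the groups did not overlap. The log2 fold change was -0.85 (SE 0.19, adjusted p = 0.251 by edgeR's quasi-likelihood test, 0.0225 by DESeq2, and 0.0225 to 0.694 over all alternatives). In M-WT HSCs it was at 5.65, 4.80, 7.00, 5.51 and 7.67 CPM and in M-TTPΔARE HSCs at 2.70, 5.13 and 3.19, where 1 library lay inside the M-WT range (-0.78, SE 0.23, edgeR adjusted p = 0.122, and 0.0147 to 0.576 over all alternatives). The interaction of age and genotype was 0.02 (SE 0.30, edgeR adjusted p = 0.977), and 0 of 9 members were called in it, beside 0.00355% of 28189 genes higher and 0.0177% lower, with 0 members at an unadjusted p under 0.05.

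Ifi209 was the member with the opposite values in young HSCs. It was at 2.23, 1.09, 3.49 and 3.22 CPM in Y-WT and at 9.28, 10.2, 4.74 and 3.82 in Y-TTPΔARE HSCs, again without overlap (log2 fold change 1.45, SE 0.41, edgeR adjusted p = 0.352, 0.0397 by DESeq2, and 0.0397 to 0.769 over all alternatives). Separate groups as such were not particular to the family. In young HSCs 1 of 9 members was higher and 1 lower without overlap, beside 1.94% of all genes higher and 2.59% lower. In middle-aged HSCs 0 of 8 members had separate groups, beside 5.62% of all genes higher and 5.57% lower. In middle-aged HSCs Ifi209 was at 0.281 to 1.19 CPM in M-WT and 0.537 to 1.44 in M-TTPΔARE (0.39, SE 0.51, edgeR adjusted p = 0.742), and the interaction was -1.11 (SE 0.69, edgeR adjusted p = 0.409).

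Ifi204 was at 8.89, 4.26, 3.31 and 5.17 CPM in Y-WT and 2.53, 1.93, 3.65 and 2.46 in Y-TTPΔARE HSCs (log2 fold change -1.08, SE 0.32, edgeR adjusted p = 0.372), with one Y-TTPΔARE library inside the Y-WT range. Its middle-aged difference was of like size at lower levels, at 0.454 to 1.69 and 0.189 to 0.722 CPM (-0.98, SE 0.55, edgeR adjusted p = 0.406). The macrophage gene Mrc1 was at 17.8 to 71.1 CPM in Y-WT and 10.8 to 26.7 in Y-TTPΔARE HSCs, and at 2.91 to 8.47 and 0.833 to 1.34 in middle-aged HSCs, where it fell (log2 fold change -2.21, SE 0.34, edgeR adjusted p = 0.0102). Mrc1 does not stand for its list: in young HSCs 0 of 16 monocyte and macrophage genes were called, and their median log2 fold change was 0.29. In middle-aged HSCs 2 of 15 tested were lower, Mrc1 and Vcam1, and 0 higher, with a median of -0.12. The summed CPM of the 16 monocyte and macrophage genes was 500 to 789 and 592 to 673 in young and 438 to 498 and 432 to 457 in middle-aged HSCs, and the part of these genes in the values of Ifi204 was not tested.

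For the 3 abundant members the HSC data bounded the difference narrowly. The 95% interval of the log2 fold change ran from -0.11 to 0.20 for Ifi203, from -0.13 to 0.18 for Mndal and from -0.15 to 0.27 for Aim2 in young HSCs. In middle-aged HSCs it ran from -0.11 to 0.15, from -0.05 to 0.18 and from -0.09 to 0.37. Intervals of the scarce members were wide, for example -1.50 to 1.77 for Ifi207 in young HSCs. In the wider pathway 0 genes of inflammasomes and DNA sensing (23 tested) and 0 of type I interferon response (39) were called in young HSCs, and in middle-aged HSCs 1 of 28 interferon gamma response genes was higher, the guanylate-binding protein gene Gbp9 (0.64, SE 0.12, edgeR adjusted p = 0.0231).

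**Figure D4:**
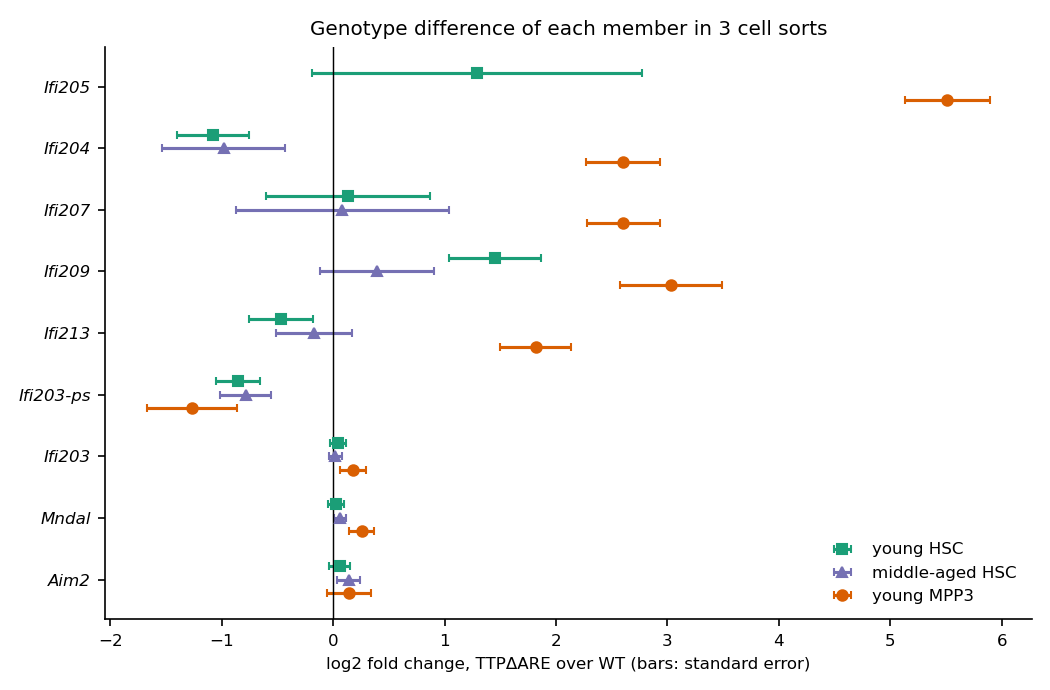
Log2 fold change of TTPΔARE over WT for each member in young HSCs (squares), middle-aged HSCs (triangles) and young MPP3 cells (circles), with bars of 1 SE. Ifi205 was not tested in middle-aged HSCs. Ifi205, Ifi209, Ifi207, Ifi204 and Ifi213 lie between 1.82 and 5.51 in MPP3 cells, while Ifi203, Mndal and Aim2 lie near 0 in all 3. Ifi203-ps, also a scarce member, lies between -1.26 and -0.78.

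Ifi204 and Ifi213 were lower in WT HSCs of middle-aged than of young mice. Of 8 members tested 0 were higher and 2 were lower in M-WT than in Y-WT HSCs, beside 8.38% of 22280 genes higher and 3.68% lower. Ifi204, at 3.31 to 8.89 CPM in Y-WT, was at 1.21, 0.834, 0.684, 1.69 and 0.454 in M-WT HSCs (log2 fold change -2.48, SE 0.39, edgeR adjusted p = 0.0021). Ifi213 was at 4.27, 5.04, 7.39 and 4.13 CPM in Y-WT and 2.33, 1.77, 1.16, 2.11 and 0.908 in M-WT HSCs (-1.67, SE 0.30, edgeR adjusted p = 0.0047). Neither pair of groups overlapped. Without Y-WT HSC replicate 1, the library highest in Ifi204, the average logCPM of Ifi204 was 1.24, below the limit, which left 1 call, while its adjusted p was 0.0025. Ifi209 also had lower values, below the abundance limit (-1.65, SE 0.48, edgeR adjusted p = 0.0364), and Ifi203 differed by less than the fold limit (-0.19, SE 0.06, edgeR adjusted p = 0.0360). Aim2 and Ifi203-ps differed by 0.04 (95% interval -0.18 to 0.26) and 0.06 (-0.32 to 0.43).

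Markers of other cells moved with age as well. Of 16 monocyte and macrophage genes 4 were lower in M-WT HSCs, among them Mrc1 (log2 fold change -3.05, SE 0.45), Vcam1 (-3.07, SE 0.54) and Cd68 (-0.58, SE 0.09). Of 8 tested T and NK cell genes 5 were lower and 1 was higher, with sums of 69.0 to 79.7 CPM in Y-WT and 42.2 to 51.7 in M-WT HSCs. Of 10 tested MPP3 and granulocyte-monocyte genes 3 were lower, Irf8 among them (-0.92, SE 0.18), and 1 was higher, Prtn3. The interferon gamma response list also holds Irf8, and of its 28 genes 2 were higher and 1, Irf8, was lower. Of 11 tested cDC1 genes 2 were higher and 1 was lower, and of 10 erythroid genes 3 were higher and 0 lower. The part of these genes in the age difference of Ifi204 and Ifi213 was not tested.

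Between the cell types of young WT mice, 1 of 9 members was higher in MPP3 cells than in HSCs and 2 were lower, beside 14.5% of 22816 genes higher and 7.69% lower. These libraries are shared, the Y-WT HSC group with the young genotype and age comparisons and the Y-WT MPP3 group with the contrast on which members were chosen. Mndal was at 120, 109.9, 119 and 115 CPM in HSCs and 136, 146, 168 and 146 in MPP3 cells (log2 fold change 0.32, SE 0.10, edgeR adjusted p = 0.0368). This call was lost on library totals without scaling factors (0.11, edgeR adjusted p = 0.386), without Y-WT HSC replicate 3 (adjusted p = 0.0752), without Y-WT MPP3 replicate 2 (adjusted p = 0.0993), under a likelihood ratio test in edgeR (adjusted p = 0.0762) and with no filter on low counts (edgeR adjusted p = 0.119). The call was also lost with replicate number as a block. Library totals are a scaling that moved the median of all genes from -0.16 to -0.38. Ifi204 fell from 3.31 to 8.89 CPM in HSCs to 1.48 to 2.21 in MPP3 cells (-1.68, SE 0.35, edgeR adjusted p = 0.0069), and it passed in every alternative (highest adjusted p = 0.0342).

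Ifi213 was called lower in MPP3 cells, at 1.55 to 3.41 CPM, than in HSCs (-0.95, SE 0.31, edgeR adjusted p = 0.0474, and 0.0181 to 0.137 over all alternatives), but the call was lost without any 1 of the 8 libraries. Ifi205 and Ifi207 had higher values in all 4 Y-WT MPP3 libraries than in any Y-WT HSC library without passing the test (3.13, SE 1.21, edgeR adjusted p = 0.0925, and 1.58, SE 0.66, edgeR adjusted p = 0.120). Ifi205 passed when all 24 libraries were fitted together (edgeR adjusted p = 0.0057), but nothing is read from that. That fit includes the Y-TTPΔARE MPP3 libraries on which the members were chosen. In the Y-WT libraries of this comparison the average logCPM of Ifi205 was 0.198, below the limit. Ifi206, a family gene outside the members, was higher in MPP3 cells (0.83, SE 0.19, edgeR adjusted p = 0.0120). Aim2 differed by -0.05 (95% interval -0.34 to 0.25). Of 23 tested genes of inflammasomes and DNA sensing 6 were higher in MPP3 cells, among them the sensors Nlrp1a and Cgas and the adaptor Tmem173, and 1 was lower, Casp4. Mrc1 was lower in MPP3 cells as well (-2.16, SE 0.65), while 8 of 16 monocyte and macrophage genes were higher, and their part in the values of the members was not tested.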

How the data were processed

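Bulk mRNA-seq of sorted HSCs and MPP3 cells was analysed from the counts per gene that the authors deposited, which are whole numbers without normalization. Per the paper, the authors used Trim Galore! and Cutadapt for trimming, STAR with a GENCODE M22 index of mm10 for alignment and featureCounts for counting; the strand and multimapping settings are not given in the sources used here. The paper and the labels name different library kits. The paper used 3 of the 4 Y-TTPΔARE MPP3 libraries, whereas all 4 were used here.

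The analysis used edgeR 4.0.16 under R 4.3.3. Genes were kept by filterByExpr (minimum count 10, minimum total 15) and libraries were scaled by TMM, within each comparison for fold changes and over all 24 libraries for the CPM printed. Each comparison was fitted on its own groups with edgeR's quasi-likelihood F test, and the age by genotype interaction on the 16 HSC libraries. Calls used the study's limits (adjusted p under 0.05, fold above 1.2, average logCPM above 1.5). The paper does not name the edgeR test behind its own calls. Why it lists more genes in young HSCs was not tested. The standard error is the size of the log2 fold change divided by the square root of F. The test was also run on simulated counts with the same dispersion for every gene. Replicates here were uneven, so that run does not show how the test performs on these libraries.

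The members, the gene lists and the tests were chosen with earlier results of these data known. Named genes are all members, Zfp36, up to 3 called genes per list and comparison, the 5 genes nearest in pattern to Ifi205 and to Ifi203-ps, and called neighbours within 1 Mb; others are said to be outside this rule. Replicates differed by more than sampling noise in every group. Positions, exon lengths and 3′ UTRs are from GENCODE M21 on GRCm38, another release than that used for counting, and promoters from RefSeq on GRCm38.p6. Alternatives were DESeq2 1.42.0, edgeR's likelihood ratio test, RLE scaling, no filter, no logCPM limit, a replicate block, all 24 libraries in one fit, each library left out in turn and, added after the data were seen, library totals without scaling factors.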

Additional observations from a re-analysis of the deposited data

Results flagged for a closer look

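Of the members' values, 3 stood far from the other libraries of their group by Dixon's test, of 45 member and group pairs tested, and chance flags about 1 in 20. All 3 were in Y-TTPΔARE MPP3 cells. Ifi203 was at 356 CPM in replicate 4, the library with the lowest scaling factor, against 231 to 241 in the other 3. Without replicate 4 its log2 fold change in MPP3 cells was 0.08 (SE 0.09) in place of 0.18. Ifi204 was at 17.8 CPM in replicate 1 against 7.45 to 9.05, and Ifi207 was at 21.0 CPM in the same replicate against 13.8 to 14.9.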

How the results depend on the processing

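Of 690 alternative values of 45 member fold changes, 629 kept their direction and their side of the limits or their size within the error, and the values of 8 fold changes reversed at least once. In MPP3 cells 5 members were higher and 0 lower in every alternative. DESeq2 called 1 member higher (Ifi209) and 1 lower (Ifi203-ps) in young HSCs and 1 lower (Ifi203-ps) in middle-aged HSCs, as did the fit with no filter on low counts (1 lower). DESeq2 also called more of all genes, 165 higher and 139 lower in young HSCs against 3 and 3, and 371 and 452 in middle-aged HSCs against 148 and 150, and the fit with no filter called 339 and 503 in the latter. Between cell types the count of higher members was 0 with the likelihood ratio test, with library totals, with no filter and with the replicate block and 2 with all 24 libraries in one fit, and that of lower members was 1 with no filter and with the block. The fit of all 24 libraries includes the Y-TTPΔARE MPP3 libraries on which the members were chosen, so nothing is read from its count of 2. The titles do not say whether same-numbered libraries are paired, and the correlations of their deviations cannot settle it. These ran from -0.15 to 0.21 over the comparisons, and from 0.03 to 0.19 between Y-WT MPP3 cells and Y-WT HSCs. The block moved counts of members called only between cell types. With each library left out, the count of members lower with age was 1 to 2, and between cell types 0 to 2 were higher and 1 was lower (2 higher without Y-WT HSC replicate 1, with Ifi203 added).

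Reversed values belonged to fold changes that were near 0 or, for Ifi207, had a standard error above their size. With the replicate block they were -0.073 for Ifi207 in middle-aged HSCs between genotypes, -0.046 for Ifi203-ps and -0.014 for Aim2 with age. On library totals they were -0.018 for Mndal in young HSCs between genotypes, and -0.032 for Ifi203-ps and -0.045 for Aim2 with age. The interaction of Ifi203-ps was -0.0014 with no filter. Leaving out a library gave -0.22 to 0.57 for Ifi207 in young and -0.31 to 0.40 in middle-aged HSCs, -0.036 to 0.048 for Ifi203 in middle-aged HSCs, -0.047 to 0.15 for Ifi203-ps and -0.026 to 0.10 for Aim2 with age, -0.10 to 0.069 for Aim2 between cell types and -0.28 to 0.25 for the interaction of Ifi203-ps. The causes were not tested. The 95% intervals of Ifi205 and Ifi207 in HSCs are wide.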
